A study of Homo sapiens with 6 samples.

Results

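The 10 genes studied belong to the activin and bone morphogenetic protein (BMP) branches of the TGF-beta superfamily, and were followed in 786-O cells carrying a short hairpin RNA against IGF2BP2. They were chosen by symbol: the activin subunit genes INHBA and INHBB, the activin antagonists FST and FSTL3, the ligands BMP2 and BMP4, the type II receptors ACVR2A and BMPR2, and the type I receptors ACVR1 and BMPR1A. All 10 were found among the 20020 genes of the count table. The 786-O line derives from a human clear cell renal carcinoma, lacks functional VHL, and was grown in RPMI1640 with serum. Polyadenylated RNA was sequenced from 3 samples of genotype shIGF2BP2 and 3 controls of genotype puro, a label that is not spelled out. The tables hold 9 columns: 6 for shIGF2BP2, in sets of 3 that carry the number 2 or 3 (set 2 and set 3 here), and 3 for puro. The labels leave that number unexplained. Separate cultures are not stated either, and p-values thus cover just the spread among these columns, which may be technical. All groups are bulk cultures of 1 cell line, in which fewer expressing cells and less RNA per cell cannot be told apart.

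Activins are dimers of inhibin beta chains, and BMP2 and BMP4 are dimeric ligands of the same superfamily. A ligand joins a pair of type II receptors to a pair of type I receptors. Activin signals mainly through SMAD2 and SMAD3, and BMPs through SMAD1, SMAD5 and SMAD9. Follistatin, encoded by FST, and the related FSTL3 bind activins and keep them from their receptors, and chordin-like proteins and noggin bind BMPs in the same way. IGF2BP2 binds mRNAs that carry N6-methyladenosine, and the title of the series names an axis from this mark to TGF-beta and SMAD signalling.

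The promoters of the 2 activin subunit genes are shown because INHBA rose in both sets while INHBB moved in opposite directions. Their start regions differ in makeup, and a link between makeup and these changes was not tested. Each run covers 250 bases before to 50 after the RefSeq start (GRCh38.p14), 5′ to 3′ on the gene's strand. Capitals mark the words searched on both strands: the AP-1 word TGANTCA, the cyclic AMP response element TGACGTCA, the GC-rich SMAD word GGCGCC and the TATA word TATAAA.
INHBA promoter (chr7:41703041-41703340, minus strand): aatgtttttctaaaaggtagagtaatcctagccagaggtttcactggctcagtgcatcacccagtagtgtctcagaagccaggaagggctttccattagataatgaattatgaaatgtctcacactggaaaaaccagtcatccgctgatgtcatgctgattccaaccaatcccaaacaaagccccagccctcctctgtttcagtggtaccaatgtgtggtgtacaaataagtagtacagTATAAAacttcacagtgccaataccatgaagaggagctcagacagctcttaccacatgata
INHBB promoter (chr2:120345886-120346185, plus strand): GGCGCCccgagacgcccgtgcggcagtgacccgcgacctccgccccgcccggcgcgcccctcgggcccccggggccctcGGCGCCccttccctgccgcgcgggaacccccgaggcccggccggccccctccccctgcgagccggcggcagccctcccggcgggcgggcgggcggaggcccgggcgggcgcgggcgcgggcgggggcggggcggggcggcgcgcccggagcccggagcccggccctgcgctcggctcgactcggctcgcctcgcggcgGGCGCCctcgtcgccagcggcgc

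The INHBA window had a GC content of 43.3% and 1 TATA word. The INHBB window had a GC content of 88.7% and 3 copies of GGCGCC, against a median GC content of 58.7% over 35116 human promoter windows of the same length. Of all these windows 19.2% hold GGCGCC, 11.5% TATAAA, 7.71% TGANTCA and 1.85% TGACGTCA. RefSeq windows were found for 9 of the 10 genes, all but BMP2, and some genes have several starts. Among their 13 windows, 5 held GGCGCC (INHBB, FSTL3, BMP4, ACVR1 and BMPR2), 3 held TATAAA (INHBA, FSTL3 and BMPR1A), 2 held TGANTCA (FST and ACVR1) and 0 held TGACGTCA. A match describes letters in the window and no site, and the starts used in these cells were not analysed here.

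Sites in 3′ UTRs are shown because IGF2BP proteins are known to prefer the letters TGGAC, with U for T in RNA, around the methylated base. The word occurred in the 3′ UTR of 8 of the 10 genes, all but FSTL3 and BMP2, and in 58.4% of 12836 UTRs of tested genes (GENCODE 29, GRCh38). Whether a UTR holds the word also depends on its length, which ran from 296 bases in BMP4 to 9119 in BMPR1A. INHBA held 5 copies in 4536 bases, a density of 1.10 per kb against 0.796 per kb over all 12836 UTRs. Densities were higher than that of INHBA in BMP4 (3.38, from 1 copy in 296 bases), ACVR1 (1.84) and INHBB (1.55). They were 0.908 in FST, 0.897 in BMPR2, 0.548 in BMPR1A and 0.282 in ACVR2A. Of the INHBA copies, 3 are shown in DNA letters with the word in capitals, all on the minus strand. They are the first, the middle and the last along the UTR. The matches are letters only, and methylation and IGF2BP2 binding at them were not analysed here.
INHBA, chr7:41689256-41689276: cagtagtgTGGACtagaacaa
INHBA, chr7:41686043-41686063: tgtgggatTGGACtttaagag
INHBA, chr7:41685172-41685192: acagttagTGGACagtattca

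IGF2BP2 itself stood at 23.9 ± 1.11 CPM in set 2, 33.7 ± 2.26 in set 3 and 76.8 ± 2.10 in puro (SD, n = 3 each). CPM here are counts relative to the library total, scaled with trimmed-mean (TMM) factors. Depth was 33821216 to 47470019 counts per column. Genes with an adjusted p under 0.05 by the edgeR quasi-likelihood test were called. That held for 59.9% of 13346 tested genes in set 2 against puro (30.0% higher, 29.9% lower), for 55.6% in set 3 against puro (28.0% higher, 27.6% lower) and for 60.7% in set 2 against set 3 (30.8% higher, 29.8% lower). The 9 renal and 786-O markers reported, PAX8, PAX2, LHX1, VIM, KRT8, KRT18, CDH2, CDH6 and EPAS1, passed the filter on low counts, and together they summed to 7040 to 7180 CPM in set 2, 7060 to 7530 in set 3 and 5810 to 6130 in puro. VIM, the intermediate filament vimentin, held most of that sum (5060 ± 90.8 CPM in set 2, 5270 ± 182 in set 3 and 3950 ± 156 in puro, SD, n = 3). All 9 were called in both sets, 4 higher and 5 lower in set 2, and 5 higher and 4 lower in set 3. Among those lower were CDH6, a cadherin of renal epithelium, at 45.6% of puro in set 2 and 42.7% in set 3, and PAX8, a renal lineage factor, at 44.5% of puro in set 3 (edgeR adjusted p = 6.01e-14). Markers of other cell types were low: 9 of 13 did not pass the filter, among them PTPRC, CD3E, CDH5 and ALB, and all 13 together summed to 6.26 to 6.54 CPM in set 2, 3.71 to 4.88 in set 3 and 3.25 to 4.69 in puro. None of the 13 was at 0 in every column, and ACTA2, a smooth muscle and myofibroblast actin, made up most of the sum in set 2 (4.95 ± 0.192 CPM in set 2, 1.48 ± 0.0699 in set 3 and 2.33 ± 0.300 in puro, SD, n = 3). ACTA2 was called higher in set 2 and lower in set 3 (edgeR adjusted p = 1.91e-05 and 0.00817). PDGFRB, a pericyte and fibroblast receptor, had 0.699 ± 0.0738 CPM in set 2, 2.10 ± 0.477 in set 3 and 0.863 ± 0.136 in puro (SD, n = 3), and was called higher in set 3 (edgeR adjusted p = 0.00121). Their part in the results was not tested.

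Of the 10 genes, FST did not pass the filter, so that 9 were tested. In set 2 against puro, 8 of 9 were called, 2 higher and 6 lower, and in set 3 against puro 6 of 9, 1 higher and 5 lower. Both shares are read against the backgrounds of 59.9% and 55.6% given above. Across both sets INHBA was higher, FSTL3, BMP2 and BMPR2 were lower, and INHBB was called in opposite directions. Over all tested genes, 15.0% were higher in both sets, 14.0% lower in both and 9.02% called in opposite directions. The median log2 fold change of the 9 genes was -0.46 in set 2 and -0.23 in set 3, against 0.006 and 0.004 over all tested genes. Without its sign, the median change was 0.50 in set 2 and 0.34 in set 3, against 0.36 and 0.32 over all tested genes. The 3 puro columns serve both comparisons, whose values stand side by side and are not separate evidence.

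**Figure D1:**
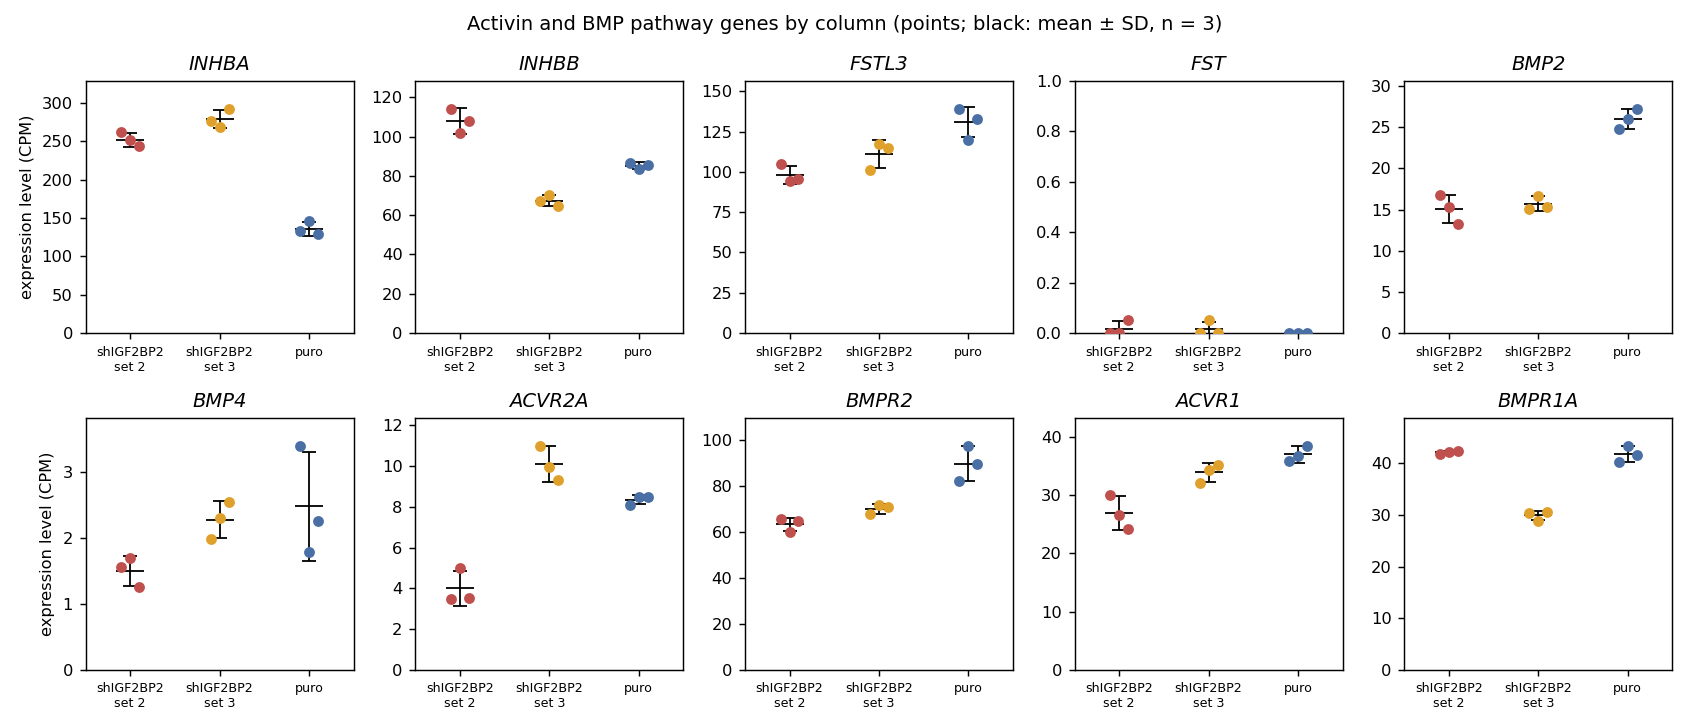
Expression level in CPM (vertical axes, linear, starting at 0) of the 10 genes in each column of shIGF2BP2 set 2, shIGF2BP2 set 3 and puro; points are columns, and black marks are the mean and SD (n = 3). INHBA lies at 244 to 292 CPM in the shIGF2BP2 columns and at 129 to 146 CPM in puro, and ACVR2A is lowest in set 2.

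Among the ligands, INHBA rose most. Its gene (chromosome 7, 41667168 to 41705834, minus strand, GENCODE 29 on GRCh38, as for the genes that follow) encodes the beta A chain of activin A. INHBA had 262, 251 and 244 CPM in the set 2 columns, 276, 269 and 292 CPM in set 3, and 133, 146 and 129 CPM in puro. All 6 shIGF2BP2 columns stood above all 3 puro columns, and set 2 lay below set 3. The rise was 1.85-fold in set 2 (log2 0.89, SE 0.07, edgeR adjusted p = 5.3e-12) and 2.05-fold in set 3 (log2 1.04, SE 0.07, edgeR adjusted p = 2.81e-13). Set 2 lay below set 3 by a narrow call (log2 -0.15, edgeR adjusted p = 0.0497), which ended in 8 of 16 alternatives, with adjusted p between 0.023 and 0.783. On log2 FPKM, which is scaled to plain library totals, that difference was -0.02 (limma adjusted p = 0.783 with a pseudocount of 0.1). The median of all tested genes in that comparison was 0.14 on this scale and 0.02 with trimmed-mean scaling. INHBA-AS1 overlaps INHBA on the other strand in the annotation, and without a stated strand setting reads of both cannot be told apart.

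INHBB (chromosome 2, 120346143 to 120351808, plus strand) encodes the beta B chain, which forms activin B or pairs with beta A in activin AB. It had 114, 102 and 108 CPM in set 2, 67.3, 70.4 and 64.6 CPM in set 3, and 86.7, 83.5 and 85.3 CPM in puro. The 3 groups did not overlap: every set 2 column was above puro and every set 3 column below it. INHBB rose by 1.27-fold in set 2 (log2 0.34, SE 0.07, edgeR adjusted p = 9.73e-05), and its log2 fold change was -0.34 in set 3 (SE 0.07, edgeR adjusted p = 0.00015). Set 2 stood above set 3 by 0.68 on the log2 scale (edgeR adjusted p = 2.13e-09). With the columns of a sample summed, the log2 value of shIGF2BP2 over puro was 0.03 (edgeR adjusted p = 0.637).

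BMP2 (chromosome 20, 6767664 to 6780280, plus strand), a BMP ligand, fell by similar amounts in both sets. It had 16.8, 15.3 and 13.3 CPM in set 2, 15.1, 16.7 and 15.3 CPM in set 3, and 24.8, 26.0 and 27.2 CPM in puro. Each shIGF2BP2 column was below each puro column, and the ranges of the sets overlapped. The level was 58.2% of puro in set 2 (log2 -0.78, SE 0.10, edgeR adjusted p = 9.53e-08) and 60.4% in set 3 (log2 -0.73, SE 0.10, edgeR adjusted p = 3.68e-07). Between the sets, the test was not passed (log2 -0.05, interval of 2 SE on each side -0.25 to 0.14, edgeR adjusted p = 0.654), which does not show that they are equal.

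BMP4 (chromosome 14, 53949736 to 53958761, minus strand), the close relative of BMP2, had the fewest counts of the tested members, with 48 to 124 per column. It had 1.56, 1.69 and 1.25 CPM in set 2, 1.99, 2.30 and 2.55 CPM in set 3, and 3.40, 1.79 and 2.25 CPM in puro. Puro replicate 1 stood above the other columns, and set 3 overlapped puro. In set 2 BMP4 was called lower (log2 -0.72, SE 0.26, edgeR adjusted p = 0.0169), and the call ended without puro replicate 1 (log2 -0.43, edgeR adjusted p = 0.202) and without set 2 replicate 3 (edgeR adjusted p = 0.0711). Across 16 alternatives the adjusted p spanned 0.00612 to 0.202. Set 3 did not pass (log2 -0.12, edgeR adjusted p = 0.699), and its sign turned to 0.18 without puro replicate 1. The sets differed by log2 -0.60 (edgeR adjusted p = 0.0433), a call lost in 7 of 16 alternatives, where the adjusted p lay between 0.0281 and 0.146.

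The antagonists were split between a gene with almost no reads and an abundant one. FST (chromosome 5, 53480409 to 53487134, plus strand), which encodes follistatin, was listed with 0, 0 and 2 counts in set 2, 0, 2 and 0 in set 3, and 0, 0 and 0 in puro. All groups were under a floor of 3 counts per column, so no fold change is given. FSTL3 (chromosome 19, 676365 to 683399, plus strand), a secreted protein that binds activins and myostatin, had 105, 94.1 and 95.3 CPM in set 2, 101, 117 and 115 CPM in set 3, and 139, 120 and 133 CPM in puro. No shIGF2BP2 column reached the lowest puro column, while the ranges of the sets overlapped. The log2 fold change was -0.42 in set 2 (SE 0.07, edgeR adjusted p = 2.3e-05) and -0.23 in set 3 (SE 0.07, edgeR adjusted p = 0.00831). FSTL3 was lower in set 2 than in set 3 by a log2 of -0.18 (edgeR adjusted p = 0.0352), a call that ended in 7 of 16 alternatives, with adjusted p between 0.00222 and 0.553.

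**Figure D2:**
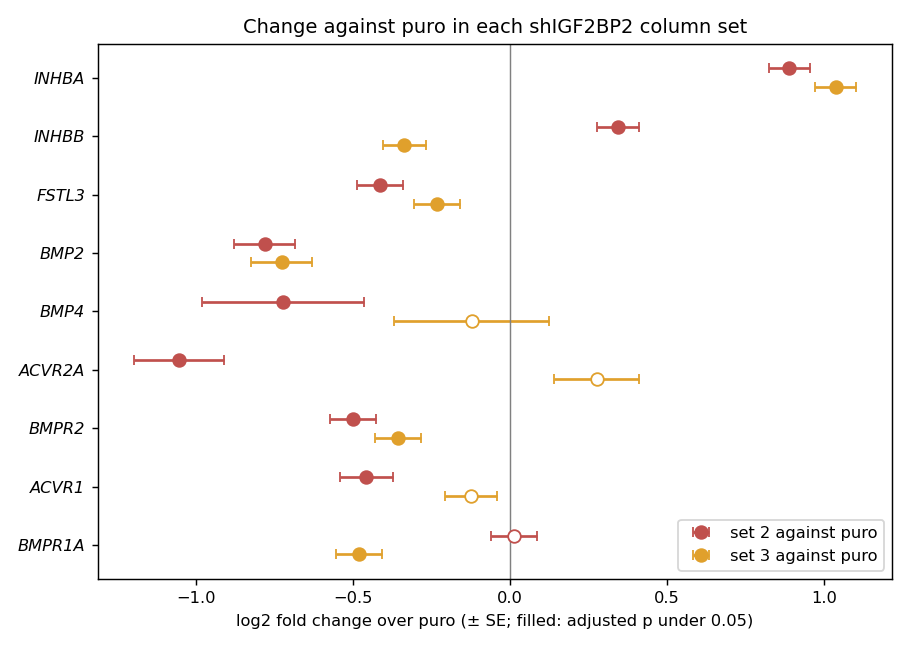
Log2 fold change over puro (horizontal axis) of the 9 tested genes in set 2 and in set 3, with standard errors; filled points have an edgeR adjusted p under 0.05. INHBA lies right of 0 in both sets, BMP2, FSTL3 and BMPR2 lie left of it in both, and INHBB lies on either side (0.34 in set 2 and -0.34 in set 3).

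The type II receptors differed from each other. ACVR2A (chromosome 2, 147844517 to 147930826, plus strand, GRCh38) encodes a receptor of activins and also of several BMPs. It had 3.49, 4.98 and 3.53 CPM in set 2, 11.0, 9.96 and 9.34 CPM in set 3, and 8.08, 8.48 and 8.48 CPM in puro. Every set 2 column was below every other column, and every set 3 column was above puro. The level in set 2 was 48.2% of puro (log2 -1.05, SE 0.14, edgeR adjusted p = 5.15e-07), the deepest fall of the 9 genes. Set 3 did not pass against puro (log2 0.28, SE 0.14, edgeR adjusted p = 0.0866). Set 2 against set 3 gave log2 -1.33 (SE 0.14, edgeR adjusted p = 6.59e-09), the widest gap between them among the 9. ORC4, a subunit of the origin recognition complex, overlaps ACVR2A on the other strand and stood at 33.3 ± 0.998 CPM in set 2, 39.8 ± 5.18 in set 3 and 41.7 ± 0.923 in puro (SD, n = 3). Like ACVR2A, ORC4 was called lower in set 2 against puro (log2 -0.33, edgeR adjusted p = 0.00146) and against set 3 (log2 -0.26, edgeR adjusted p = 0.00899). Set 3 against puro did not pass for ORC4 (log2 -0.07, edgeR adjusted p = 0.51). What shared reads add to either gene was not tested.

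The 3′ UTR of ACVR2A is shown at the place where it holds the words GTCATCA and TCATCAA, which overlap and start 1 base apart. An earlier look at the fold changes of all genes in these columns had picked these words as linked to lower values in set 2, so their presence supports nothing here.
ACVR2A, chr2:147927791-147927813, plus strand, with GTCATCA in capitals: tacataaaGTCATCAaagtgggg
Either word occurred in 5 of the 10 genes (INHBA, BMP2, ACVR2A, BMPR1A and BMPR2), and in 14.7% of the 12836 UTRs. INHBA, which rose in set 2, and BMPR1A, which was not called there, are among the 5. The gene models behind the deposited values can differ from GENCODE 29: its BMPR1A UTR spans 9119 bases, more than the 6522 bases of gene length that the deposited FPKM values imply.

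BMPR2 (chromosome 2, 202376936 to 202567751, plus strand), the main type II receptor of BMPs, had 65.5, 60.1 and 64.7 CPM in set 2, 67.7, 71.8 and 70.9 CPM in set 3, and 82.1, 97.6 and 89.5 CPM in puro. Both sets lay below puro without overlap. The log2 fold change was -0.50 in set 2 (SE 0.07, edgeR adjusted p = 1.3e-06) and -0.36 in set 3 (SE 0.07, edgeR adjusted p = 0.000155). The difference between sets missed the threshold (log2 -0.15, interval of 2 SE on each side -0.29 to 0.00, edgeR adjusted p = 0.0864), though the call passed without set 3 replicate 1 (edgeR adjusted p = 0.0419), and the adjusted p reached 0.852 on log2 FPKM.

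ACVR1 (chromosome 2, 157736444 to 157875862, minus strand), also called ALK2, is a type I receptor of BMPs that can form non-signalling complexes with activin A. It had 30.0, 26.6 and 24.2 CPM in set 2, 32.1, 34.4 and 35.2 CPM in set 3, and 35.8, 36.7 and 38.5 CPM in puro. All shIGF2BP2 columns were below puro, those of set 2 the lowest. ACVR1 fell in set 2 (log2 -0.46, SE 0.08, edgeR adjusted p = 3.65e-05) and did not pass in set 3 (log2 -0.12, SE 0.08, edgeR adjusted p = 0.212). The difference between the sets passed (log2 -0.33, edgeR adjusted p = 0.00118) and ended on log2 FPKM (limma adjusted p = 0.0559 with a pseudocount of 1 and 0.0505 with 0.1). The lowest adjusted p among 16 alternatives was 0.000253.

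BMPR1A (chromosome 10, 86756601 to 86932838, plus strand), also called ALK3, is a type I receptor that binds BMP2 and BMP4. It had 41.8, 42.2 and 42.4 CPM in set 2, 30.4, 28.8 and 30.5 CPM in set 3, and 40.2, 43.4 and 41.7 CPM in puro. Set 2 lay within the puro range and set 3 wholly below it. Its log2 fold change was 0.01 in set 2 (SE 0.07, interval of 2 SE on each side -0.13 to 0.16, edgeR adjusted p = 0.897) and -0.48 in set 3 (SE 0.07, edgeR adjusted p = 2.97e-06). The sets differed by 0.49 (edgeR adjusted p = 1.55e-06). Over the 9 tested genes, the comparison of set 2 with set 3 called 7, 2 higher and 5 lower, against the background of 60.7%. That count was 3 on log2 FPKM, and 4 with set 2 replicate 3 or set 3 replicate 3 left out.

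With the columns of a sample summed, giving 3 shIGF2BP2 samples against 3 puro samples, 7 of the 9 genes were called, 1 higher and 6 lower, against a background of 58.0% of 13518 tested genes (28.8% higher, 29.2% lower). INHBA was the gene that rose (log2 0.96, SE 0.05, edgeR adjusted p = 7.88e-12). BMP2 (log2 -0.76), BMPR2 (-0.44), FSTL3 (-0.33), ACVR1 (-0.29), ACVR2A (-0.26) and BMPR1A (-0.22) fell, with edgeR adjusted p between 4.9e-08 for BMP2 and 0.0386 for ACVR2A. INHBB and BMP4 did not pass (edgeR adjusted p = 0.637 and 0.129), though BMP4 passed without puro replicate 2 (edgeR adjusted p = 0.026). Summing averages the sets, so these p-values do not cover the spread between the sets. Reading the first number of the column names as the sample number leaves 2 shIGF2BP2 samples, and INHBA and BMP2 were then the 2 genes still called (edgeR adjusted p = 0.00733 and 0.0193). ACVR2A lost its call in 10 of 13 alternatives, with adjusted p between 0.0376 and 0.712.

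Levels of different genes were compared as FPKM, which divides by gene length. In puro the order was FSTL3 (47.9 ± 3.24 FPKM, SD, n = 3), INHBB (26.1 ± 0.403) and INHBA (20.4 ± 1.45), then ACVR1, BMPR2, BMP2 and BMPR1A between 6.31 and 7.91, then ACVR2A (1.52) and BMP4 (1.15). In set 2 INHBA stood first (40.4 ± 1.67 FPKM), with ranges that overlapped those of FSTL3 (38.5 ± 2.41), which in turn overlapped INHBB (35.5 ± 2.16). In set 3 INHBA (41.0 ± 2.10 FPKM) and FSTL3 (40.0 ± 3.41) overlapped, and INHBB lay below them (20.3 ± 0.733). In puro, ACVR1 and BMPR2, BMPR2 and BMP2, and ACVR2A and BMP4 were neighbours whose ranges overlapped. In set 2 the overlaps below the ligands and FSTL3 were those of BMPR1A with ACVR1, ACVR1 with BMPR2, and ACVR2A with BMP4, and in set 3 that of BMPR1A with BMP2.

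**Figure D3:**
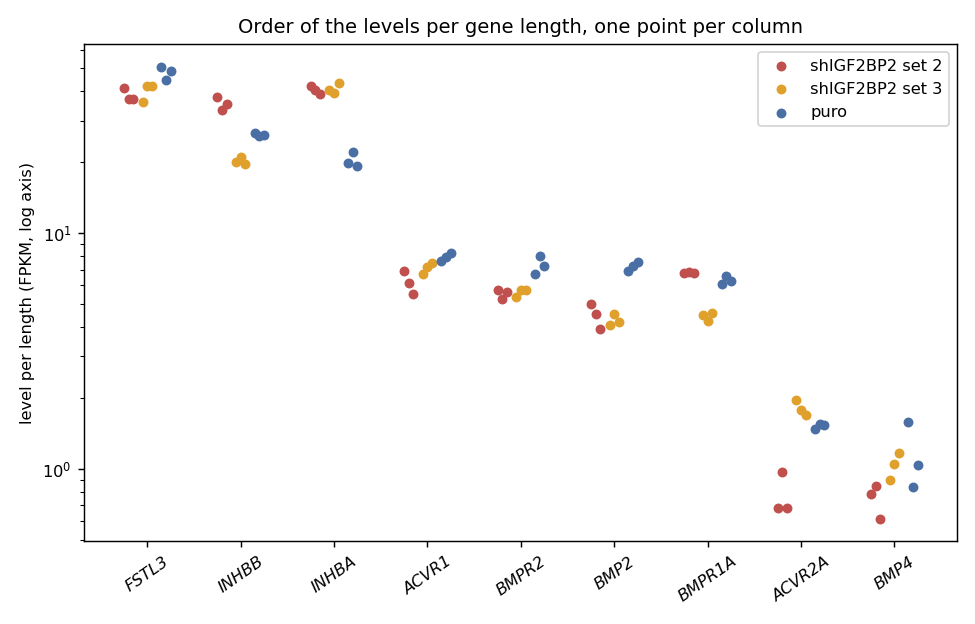
Level per gene length in FPKM (vertical axis, log scale) of 9 genes in every column of set 2, set 3 and puro, ordered by the puro mean; FST is left out because most of its values are 0. INHBA and FSTL3 are close in both shIGF2BP2 sets (40.4 and 38.5 FPKM in set 2) and apart in puro (20.4 and 47.9 FPKM).

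Ratios of FPKM within a column do not depend on how columns are scaled to each other. INHBA over INHBB was 1.12, 1.20 and 1.10 in set 2, 2.00, 1.87 and 2.21 in set 3, and 0.747, 0.855 and 0.740 in puro, so that the 3 groups did not overlap. INHBA over FSTL3 was 1.05 ± 0.0338 in set 2, 1.03 ± 0.0886 in set 3 and 0.428 ± 0.0590 in puro (SD, n = 3). INHBA and INHBB together came to 75.8 ± 3.46 FPKM in set 2, 61.3 ± 1.51 in set 3 and 46.5 ± 1.24 in puro. BMP2 and BMP4 together came to 5.24 ± 0.629, 5.32 ± 0.313 and 8.37 ± 0.228 FPKM in the same order of groups. Unlike the ratios, these sums depend on the scaling to plain library totals. On log2(FPKM + 0.1) the median change of all tested genes against puro was 0.094 in set 2 and -0.021 in set 3. With trimmed-mean scaling it was 0.006 and 0.004. Among receptors, ACVR2A over BMPR2 was 0.142 ± 0.0373 in set 2, 0.323 ± 0.0369 in set 3 and 0.208 ± 0.0131 in puro. BMPR1A over ACVR1 was 1.11 ± 0.128 in set 2, 0.623 ± 0.0395 in set 3 and 0.797 ± 0.0353 in puro. With 3 columns a group, an exact 2-sided permutation test cannot go below 0.10, and none was run on these ratios.

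**Figure D4:**
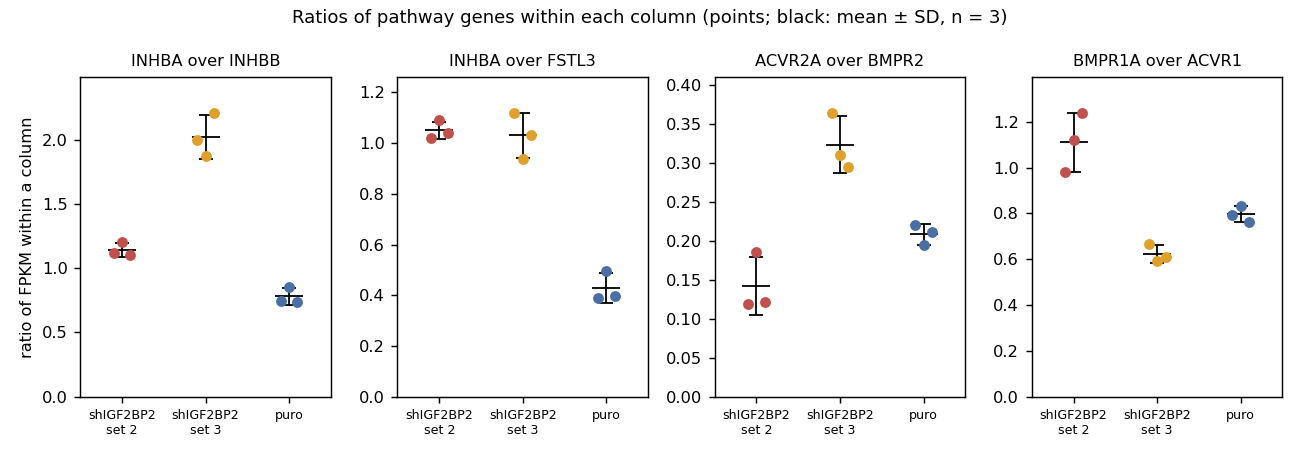
Ratios of FPKM within each column (vertical axes, linear, starting at 0) for 4 pairs of genes in set 2, set 3 and puro; points are columns, and black marks are the mean and SD (n = 3). INHBA over FSTL3 is near 1.05 in set 2 and 1.03 in set 3 and at 0.428 in puro, and the receptor ratios of the sets lie on opposite sides of puro.

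The other genes of the pathway were counted from lists compiled for these roles. The shares over all tested genes to read them against were, as above, 30.0% higher and 29.9% lower in set 2, 28.0% higher and 27.6% lower in set 3, and 15.0% higher and 14.0% lower in both. Among extracellular antagonists and modulators, 13 of 23 were tested; 7 were higher and 1 lower in set 2, 8 higher and 1 lower in set 3, and 6 were higher and 1 lower in both. The list's median log2 fold change was 0.80 in set 2 and 0.32 in set 3, against 0.006 and 0.004 over all tested genes. CHRDL1, a chordin-like BMP antagonist, had 380 ± 14.1 CPM in set 2, 389 ± 29.8 CPM in set 3 and 164 ± 1.76 CPM in puro (SD, n = 3). It rose by log2 1.21 in set 2 and 1.24 in set 3 (edgeR adjusted p = 1.01e-14 and 7.14e-15). BMPER, a BMP-binding regulator, rose by log2 1.87 in set 2 and 1.56 in set 3, and NOG, which encodes noggin, by log2 1.31 and 0.56. TWSG1, CRIM1 and WFIKKN1, named after their values were seen, make up the 6. WFIKKN1 was close to the floor, at 0.506 CPM over all columns, with 9, 4 and 0 counts in puro. The gene lower in both was BMP1 (log2 -0.53 in set 2 and -0.34 in set 3), a protease that cleaves procollagens and chordin and no BMP ligand.

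Other receptors and coreceptors moved both ways: of 8 tested among 13 matched genes, 3 were higher and 3 lower in set 2, and 5 were higher and 2 lower in set 3, against 59.9% and 55.6% of all tested genes called in either direction. The BMP coreceptor RGMB rose by log2 1.30 in set 2 and 0.92 in set 3, with 47.5 ± 3.00 CPM in set 2, 36.6 ± 0.721 in set 3 and 19.3 ± 1.63 in puro (SD, n = 3). ENG and TGFBR3, coreceptors of TGF-beta superfamily ligands, rose in both sets at 3.85 CPM or less, and NEO1, a receptor of the RGM proteins, changed by log2 -0.73 in set 2 and -0.37 in set 3. BAMBI, a decoy receptor without a kinase, was lower in set 2 (log2 -0.44) and higher in set 3 (log2 0.50), and the difference passed (log2 -0.94, edgeR adjusted p = 1.67e-09). Among further ligands, 3 of 10 activin and GDF genes and 4 of 13 BMP genes were tested. Of the 3, 1 was lower in set 2 and 2 were lower in set 3, and of the 4, 1 was higher in set 3, against the same 59.9% and 55.6%. GDF15, a stress-induced ligand named after its values were seen, was the gene lower in both, at 0.561 ± 0.393 CPM in set 2, 0.271 ± 0.0530 in set 3 and 2.06 ± 0.651 in puro (SD, n = 3; edgeR adjusted p = 0.0005 and 6.97e-06).

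Of 19 SMADs and SMAD regulators, 5 were higher and 9 lower in set 2, and 5 higher and 6 lower in set 3. Over all tested genes, 30.0% were higher and 29.9% lower in set 2, and 28.0% higher and 27.6% lower in set 3. In all, 14 of the 19 were called in set 2 and 11 in set 3, against 59.9% and 55.6% over all tested genes. SKI, a SMAD corepressor, rose by log2 1.19 in set 2 and 0.63 in set 3, SMURF2, an E3 ligase for SMADs and receptors, by 0.29 and 0.50, and the phosphatase PPM1A by 0.52 and 0.19. The inhibitory SMAD6 changed by log2 -0.88 in set 2 and -0.99 in set 3, SMAD7 by -0.58 and -0.37, and the activin transducer SMAD3 by -0.30 and -0.33. TGIF1, a SMAD corepressor, was called in opposite directions (log2 -0.21 in set 2 and 0.28 in set 3). The transducers SMAD1, SMAD2, SMAD5 and SMAD9 are named after their values were seen. SMAD2 was lower in both sets (log2 -0.32 in set 2 and -0.21 in set 3). SMAD1 (log2 -0.70 and 0.17) and SMAD5 (log2 -0.19 and 0.09) were called lower in set 2 and not called in set 3. SMAD9 (log2 -0.17 and 0.002) was not called in either set.

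Among 16 BMP-induced genes, NOG, SMAD6, SMAD7, SMAD9 and BAMBI are also counted in the lists above, so these counts are not separate evidence. Of the 16 genes, 12 were tested. In set 2, 2 were higher and 8 lower (30.0% and 29.9% over all tested genes), with a median log2 fold change of -0.51 against 0.006. In set 3, 4 were higher and 5 lower (28.0% and 27.6% over all tested genes), with a median of -0.08 against 0.004. Across both sets 1 was higher (NOG), 5 were lower and 2 were called in opposite directions. Over all tested genes, 15.0% were higher in both, 14.0% lower in both and 9.02% called in opposite directions. HEY1, a transcriptional repressor, changed by log2 -1.02 in set 2 and -1.63 in set 3, and ATOH8, a helix-loop-helix factor, by -1.80 and -0.85, both at low levels (5.42 CPM or less). SMAD6, SMAD7 and ID4, the last named after its values were seen, were the others lower in both. ID4 was at 0.367 CPM over all columns. ID3, an inhibitor of helix-loop-helix factors, had 12.0 ± 1.20 CPM in set 2, 41.9 ± 4.50 in set 3 and 22.0 ± 1.88 in puro (SD, n = 3). ID3 thus lay below puro in set 2 (log2 -0.88) and above it in set 3 (log2 0.93), a difference of -1.81 (edgeR adjusted p = 1.29e-14). BAMBI, which is also on this list, was called in the same directions as ID3. The most abundant genes of the list, named after their values were seen, were ID2 and ID1 (51.6 and 46.3 CPM over all columns). ID1 was not called in set 2 (log2 0.08, edgeR adjusted p = 0.324) and was higher in set 3 (log2 0.55, edgeR adjusted p = 2.41e-07). ID2 was lower in set 2 (log2 -0.31, edgeR adjusted p = 0.00456) and not called in set 3 (log2 -0.16, edgeR adjusted p = 0.143).

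Proprotein convertases cleave the precursors of activins and BMPs. FURIN rose by log2 0.49 in set 2 and 0.32 in set 3 (edgeR adjusted p = 2.57e-06 and 0.000784), at 104 ± 5.65 CPM in set 2, 91.6 ± 7.55 in set 3 and 73.6 ± 5.21 in puro (SD, n = 3). PCSK7 rose by 0.69 and 0.37, PCSK5 changed by log2 -0.49 and -0.73, and PCSK6 averaged 0.417 CPM or less in each group and was not called.

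**Figure D5:**
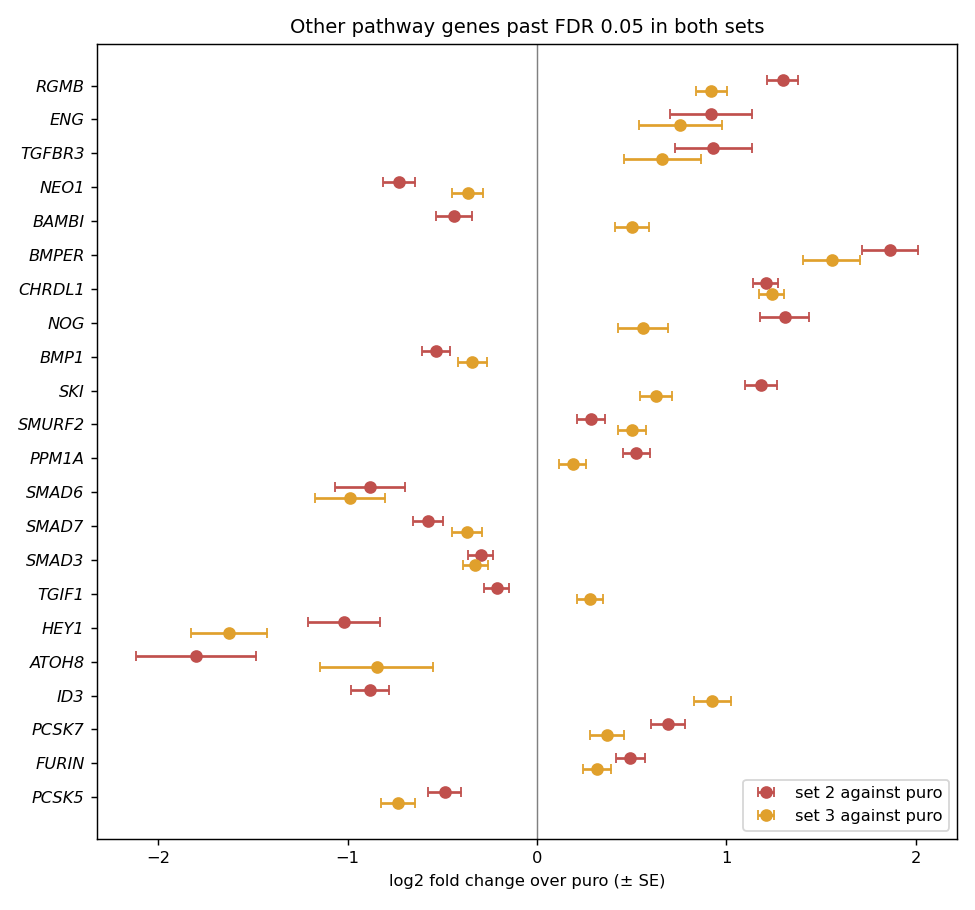
Log2 fold change over puro with standard errors (horizontal axis) in set 2 and set 3 of 22 other pathway genes, chosen by rule from genes past the threshold in both sets. BAMBI, TGIF1 and ID3 lie on opposite sides of 0 in the sets, while BMPER, CHRDL1 and RGMB lie right of 0 in both (1.87, 1.21 and 1.30 in set 2).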

How the data were processed

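Per the submitters' processing notes, reads were processed with fastp 0.23.2, STAR 2.7.10a (hg38) and featureCounts, and DESeq2 is also named. No source used here gives the annotation, the strand setting or the handling of multimapping reads. The authors deposited read counts, whole numbers for each gene symbol, and a second table of FPKM values, per the file headers. The 3 puro columns carry 1 number, the 6 shIGF2BP2 columns 2; the last was read as the replicate number.

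All 9 columns were fitted together in edgeR 4.0.16 (R 4.3.3) with filterByExpr, TMM factors, the quasi-likelihood test and Benjamini-Hochberg adjustment over all genes tested, calling at 0.05. A fit of 6 samples summed the 2 columns sharing a last number. Standard errors came from the F statistic. Alternatives were RLE factors, no filter, DESeq2 1.42.0, limma 3.58.1 on log2(FPKM + 1) and log2(FPKM + 0.1), a replicate block, fits of 2 groups, another reading of the names, and each column or sample left out. The tests were checked on simulated counts with 50 genes changed at each fold. Over the 4 comparisons, 47 to 50 were recovered at 4-fold and 17 to 28 at 1.25-fold, so small changes were often missed. Far fewer genes were changed there than were called in the data, so error rates at that share were not checked.

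The genes, lists and motifs were chosen with earlier results of these data known. Other genes named were, from each list, up to 3 higher and 3 lower in both sets by mean change at 1 CPM or more, and up to 2 called in opposite directions; exceptions are marked. A further marker gene is not reported here.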

Additional observations from a re-analysis of the deposited data

Results flagged for a closer look

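For 7 of the 9 tested genes the change against puro differed between the sets (edgeR adjusted p under 0.05). The test was that of set 2 against set 3 in the fit of all 9 columns, and values are log2, set 2 minus set 3. By the same test 60.7% of all 13346 tested genes differed. The widest gaps were those of ACVR2A (-1.33), INHBB (0.68), BMP4 (-0.60) and BMPR1A (0.49). ACVR1 (-0.33), FSTL3 (-0.18) and INHBA (-0.15) differed by less. INHBB was the gene called on opposite sides of puro, as were 9.02% of all tested genes. With the replicate number as a block, and with set 2 replicate 3 or set 3 replicate 3 left out, the calls of INHBA, BMP4 and FSTL3 ended. The cause of the differences was not tested.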

How the results depend on the processing

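Against puro, the counts of called members stayed between 7 and 8 in set 2 and at 6 in set 3 over 16 alternatives each. In set 2 against set 3, 7 members were called, beside 60.7% of all tested genes. The members called were 3 on either log2 FPKM scale and 4 with the replicate block, and leaving out single columns gave 4 to 8. With the columns of a sample summed, reading the first number as the sample number gave 1285 called genes in place of 7842 and 2 called members in place of 7, with fewer samples in the fit; leaving out single samples gave 6 to 7 members. Under the replicate block, 8 members were called in set 2 against puro, 6 in set 3 against puro and 6 in the summed samples. Same-numbered columns did not deviate together (correlations across genes of -0.103 to 0.0387). The main fit of single columns therefore did not read the numbers as pairs. The summed samples do rest on that number, since each adds a set 2 and a set 3 column. For those columns the correlations were -0.0942, 0.00408 and -0.0723, and did not show that they belong together. Over the members and alternatives run, no call changed direction: 507 of 549 values for single genes stayed on their side of the threshold, 40 lost a call and 2 gained one. INHBA and BMP2 against puro were called in every alternative run. FST could not be tested at its depth, and BMP4, at 48 to 124 counts per column, is the least precise of the tested members.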
